A study of Mus musculus with 127 samples.

Results

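CC chemokines are small secreted proteins with a pair of adjacent cysteines near the N terminus, and they steer leukocytes through G protein-coupled receptors of the Ccr family. Many of them are induced by NF-kB and AP-1 factors downstream of Toll-like receptors, the receptors by which cells detect microbial products. Blood-forming stem and progenitor cells carry such receptors too. The 7 CC chemokines described here were chosen by name from the count table of 23366 gene symbols. Ccl3, Ccl4 and Ccl5 attract macrophages and T cells, and Ccl3 and Ccl5 bind Ccr1. Ccl2 and Ccl7 attract monocytes through Ccr2. Ccl6 and Ccl9 are rodent chemokines that bind Ccr1.

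Bulk SMART-seq2 libraries, which amplify whole polyadenylated transcripts from small samples, were made of 3 populations that had been sorted by surface markers from mouse bone marrow. The populations are labelled LT (long-term haematopoietic stem cells), ST (short-term haematopoietic stem cells) and MPP (multipotent progenitors), and all cells were kept in the same medium for stem and progenitor cells. LPS, a ligand of Tlr4, at 100 ng/ml and Pam3csk4, a lipopeptide ligand of Tlr2, at 1 ug/ml were given together to cells of old mouse 2 and young mice 1, 2 and 3, which were collected at 0, 0.5, 1, 2, 4, 8 and 12 h. Cells of old mouse 4 and young mouse 4 had no ligand and were collected at 0, 2, 4 and 8 h. The labels give the ages only as old and young, and no strain. No mouse was cultured both with and without ligand, so the course and the mouse cannot be told apart. In the names of the count columns each mouse given ligand has its own date tag, and the mice without ligand share another prefix. Mouse and tag therefore cannot be told apart either. Only 1 old mouse received ligand, and its course therefore carries no test of its own.

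Summing the technical repeats gave 108 libraries, 33 old and 75 young, with 0.991 to 11.8 (median 4.2) in units of 1000000 counts and 6241 to 14096 detected genes. At 0 h Kit, the stem cell factor receptor, had 145 to 1450 counts per 1000000 counts of its library (CPM) and Ly6a (Sca-1) 66.2 to 197 CPM in all 18 libraries of the 6 mice. Slamf1 (CD150), which marks long-term stem cells, had a median of 26.7 CPM in LT (1 of 6 libraries at 0), 0 in ST and 0.774 in MPP. Flt3, a receptor of multipotent progenitors, had medians of 32.5 CPM in LT, 152 in ST and 346 in MPP. Mecom was highest in LT (medians of 62.7, 26.6 and 13.2 CPM in LT, ST and MPP). Cd34 was highest in MPP (104, 443 and 733 CPM). In contrast, Procr (15.7, 54.1 and 17.9 CPM) and Hlf (58.0, 98.3 and 62.5 CPM) were highest in ST. Cd48 was at 67.7, 63.5 and 107 CPM. Young mouse 3 stood apart: its 0 h libraries held 98.8 to 240 CPM of 6 neutrophil granule transcripts together, against 20700 to 55000 CPM in young mice 1 and 2. Its 10 monocyte and macrophage markers summed to 12.8 to 175 CPM, against 659 to 1650 CPM. Its 9 stem and progenitor markers summed to 2450 to 3810 CPM, against 791 to 2130 CPM. Results of the time course are therefore also given without young mouse 3, and the part of these other transcripts in any chemokine value was not tested. In bulk RNA, fewer cells of a type and less RNA per cell cannot be told apart.

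Ccl3, Ccl4 and Ccl5 were the members that passed against 0 h in cells given LPS and Pam3csk4. These tests cannot separate the ligands from time in culture, and no library without ligand was collected at 0.5 or 1 h. Ccl3 and Ccl4 also stood higher in culture without ligand. In young mice 1, 2 and 3, Ccl3 and Ccl4 were above their 0 h libraries from the first sample at 0.5 h onward in LT, ST and MPP, and Ccl5 from 2 h onward. Ccl9 stood above 0 h at the later times without passing the test, Ccl2 had a small early peak, Ccl6 stood lower at the later times without passing, and Ccl7 was hardly detected. In the edgeR fit of the 3 mice no member was called lower at any time in any cell type, where 0% to 0.175% of all genes were. Without young mouse 3, Ccl6 in ST at 4 h was called lower (log2 change -5.73, edgeR adjusted p = 0.013). DESeq2 on the 3 mice called Ccl2 lower in MPP at 4 h (adjusted p = 2.3e-05), where it was at 0 counts. This call rests on few reads, with 3 counts over the 3 mice at 0 h.

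Ccl3 (MIP-1 alpha) attracts monocytes, macrophages and T cells and is also known as an inhibitor of stem cell proliferation. In LT of young mouse 1 its level at 0, 0.5, 1, 2, 4, 8 and 12 h was 0.163, 198, 354, 543, 1153, 1885 and 2596 CPM. In LT of young mouse 2 it was 0.0850, 108, 298, 617, 993, 1471 and 3103 CPM at the same times. In LT of young mouse 3 it was 1.91, 5.77, 8.58, 6.40, 12.5, 23.9 and 33.5 CPM. All 3 mice lay above all their 0 h libraries at every later time, and young mouse 3 stayed far below the other two throughout. The fitted log2 change from 0 h in LT was 7.31 ± 1.65 (SE) at 0.5 h, 9.27 ± 1.77 at 2 h, 10.81 ± 1.86 at 8 h and 11.65 ± 1.92 at 12 h, with edgeR adjusted p of 0.034, 0.0029, 0.00093 and 0.00034. These large ratios rest on few reads at 0 h, with 1, 1 and 7 counts of Ccl3 in LT of young mice 1, 2 and 3.

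In ST and MPP, Ccl3 passed at 4, 8 and 12 h. In ST at 12 h it had 2675, 3019 and 351 CPM in young mice 1, 2 and 3, against 10.7, 9.43 and 9.75 CPM at 0 h. The change was 7.78 ± 1.62 (edgeR adjusted p = 0.009). In MPP at 12 h it had 2448, 2897 and 1217 CPM in young mice 1, 2 and 3, against 4.64, 5.22 and 12.9 CPM at 0 h. This change was 8.34 ± 1.66 (edgeR adjusted p = 0.0041). Young mouse 3 was the lowest of the 3 in both populations, and in MPP its distance from the others was smaller than in LT.

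Ccl4 (MIP-1 beta), a close relative of Ccl3, rose within 0.5 h in MPP. There it had 333, 403 and 425 CPM in young mice 1, 2 and 3 at 0.5 h, against 10.2, 7.94 and 15.2 CPM at 0 h. The groups did not overlap, and young mouse 3 was the highest of the 3. The log2 change was 5.20 ± 1.03 at 0.5 h and 6.43 ± 1.10 at 12 h (edgeR adjusted p = 0.0075 and 0.00046), and Ccl4 passed at all 6 times in MPP. In ST it had 206, 256 and 167 CPM at 0.5 h, against 7.12, 27.1 and 18.5 CPM at 0 h, and passed at 2, 4, 8 and 12 h. In LT it had 165, 192 and 37.0 CPM at 0.5 h, against 25.7, 11.3 and 9.57 CPM at 0 h, and passed at 4, 8 and 12 h (4.52 ± 1.00 at 4 h, edgeR adjusted p = 0.02). At 12 h Ccl4 stood at 482, 854 and 34.8 CPM in LT, 636, 1079 and 143 CPM in ST, and 884, 1274 and 407 CPM in MPP.

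Ccl5 (RANTES), a chemokine of T cells and monocytes that is known to be induced late after Toll-like receptor stimulation in macrophages, followed more slowly. In MPP of young mouse 1 it had 18.1, 33.5, 27.3, 79.1, 447, 921 and 1519 CPM at 0, 0.5, 1, 2, 4, 8 and 12 h. Young mouse 2 had 15.7, 19.8, 12.1, 164, 904, 2256 and 2857 CPM in MPP, and young mouse 3 had 4.73, 3.55, 12.0, 170, 516, 1058 and 1345 CPM. At 0.5 and 1 h the values overlapped with those at 0 h, and from 2 h on they did not. The log2 change in MPP was 5.75 ± 1.19 at 4 h, 6.91 ± 1.26 at 8 h and 7.35 ± 1.28 at 12 h, with edgeR adjusted p of 0.0085, 0.0011 and 0.00063.

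Ccl5 in ST passed at the same times as in MPP. At 8 h it had 931, 3524 and 857 CPM in ST of young mice 1, 2 and 3, against 25.7, 23.9 and 2.19 CPM at 0 h (6.75 ± 1.25, edgeR adjusted p = 0.0016). In LT at 4 h it had 1240, 1434 and 241 CPM, against 35.6, 57.1 and 0.820 CPM at 0 h (5.06 ± 1.15, edgeR adjusted p = 0.026), and this was the only time that passed in LT. At 8 and 12 h LT had 279 to 1044 and 312 to 1147 CPM, also clear of the 0 h range, with edgeR adjusted p of 0.053 and 0.069. Young mouse 3, with the lowest Ccl3 of LT, was also the lowest for Ccl5, though there at 312 CPM at 12 h, beside 596 CPM in young mouse 1. Per 1000 bases of transcript, Ccl5 was the most abundant member at 12 h in ST, at 3980 ± 3130 CPM per kb (SD, n = 3), followed by Ccl3 at 2630 ± 1890 and Ccl4 at 939 ± 709. In MPP Ccl5 was at 3580 ± 1550 and Ccl3 at 2860 ± 1140 CPM per kb. In LT the order was the other way, with Ccl3 at 2490 ± 2150 and Ccl5 at 1290 ± 798 CPM per kb. The SDs of these neighbours overlap in each population.

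**Figure D1:**
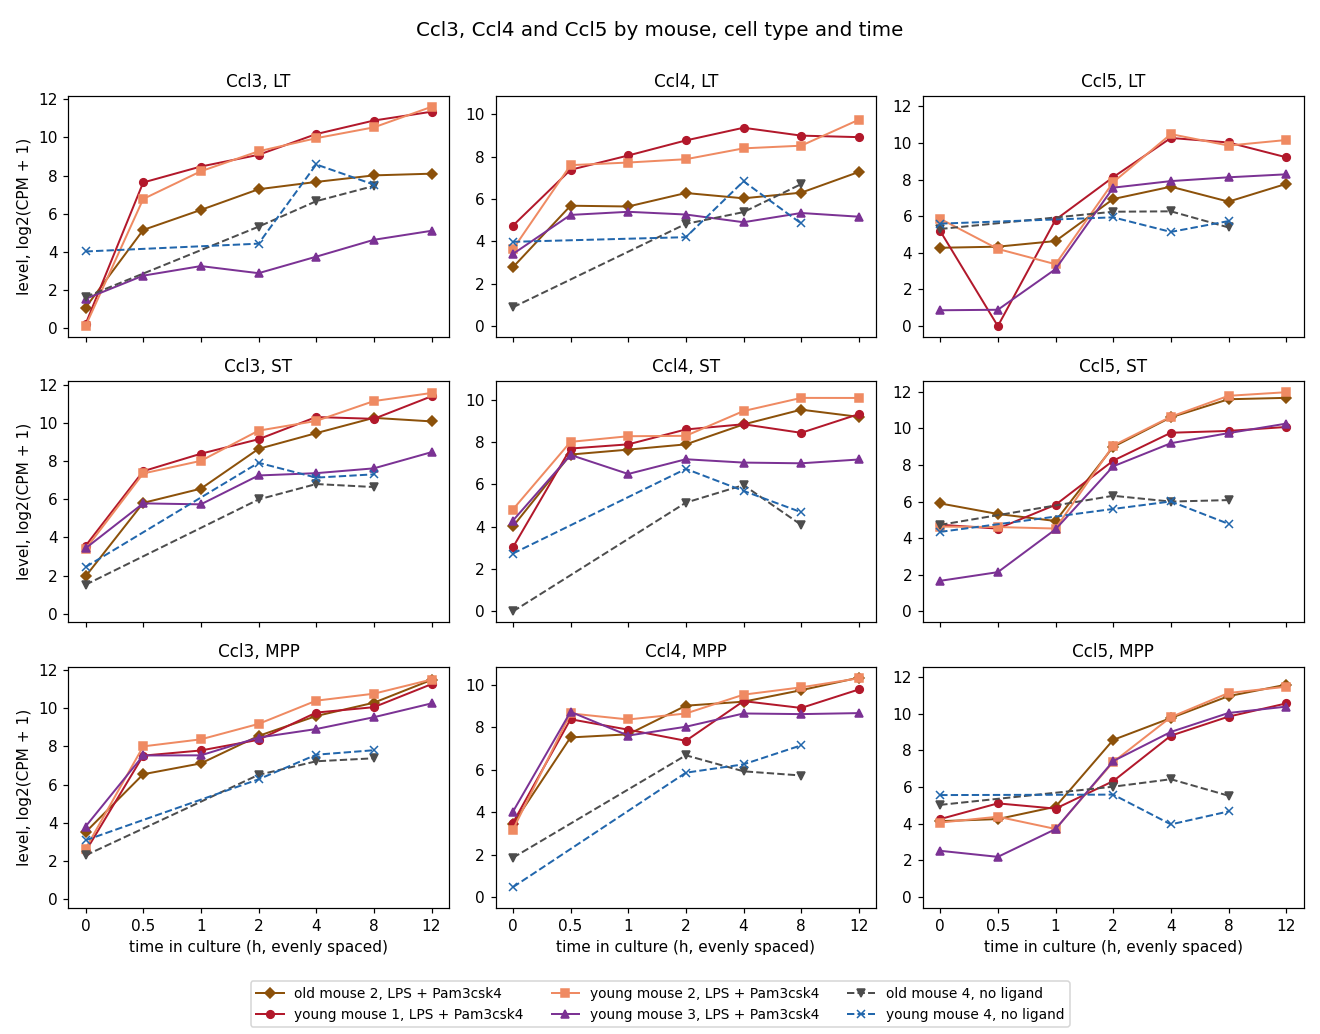
Level of Ccl3, Ccl4 and Ccl5 as log2(CPM + 1) against time in culture in LT, ST and MPP, with 1 line per mouse (solid with LPS and Pam3csk4, dashed without ligand; times evenly spaced). Ccl3 and Ccl4 lie above 0 h by 0.5 h, Ccl5 from 2 h with ligand and between 14.6 and 85.2 CPM without it, and young mouse 3 has the lowest stimulated Ccl3 in LT.

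Of the 42 member-by-time tests against 0 h in each cell type, 10 passed in LT, 10 in ST and 12 in MPP by edgeR. All of them were higher than at 0 h, in the course with ligand. At 0.5, 1, 2, 4, 8 and 12 h the members that passed were 1, 1, 1, 3, 2 and 2 of 7 in LT, where 0.146%, 0.249%, 0.292%, 0.241%, 0.234% and 0.227% of the 13678 genes were called higher. In ST they were 0, 0, 1, 3, 3 and 3 of 7, beside 0.146%, 0.3%, 0.3%, 0.256%, 0.256% and 0.271% of all genes. In MPP they were 1, 1, 1, 3, 3 and 3 of 7, beside 0.095%, 0.234%, 0.263%, 0.336%, 0.292% and 0.3%. A test of any change over the 6 times called Ccl3 and Ccl5 in LT, ST and MPP and Ccl4 in MPP, where 1.17%, 0.848% and 0.695% of all genes passed. In this test Ccl4 had edgeR adjusted p = 0.064 for LT and 0.058 for ST.

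These counts turned on single mice. Without young mouse 1 they were 0 in LT, 1 in ST and 1 in MPP, and without young mouse 2 they were 0 in each. Without young mouse 3 they were 15, 16 and 15, of which 1 in ST was lower, Ccl6 at 4 h. With mouse as a block, 15, 14 and 14 tests passed. The calls over all genes moved as well, as in LT at 8 h. There 32 of 13678 genes were called higher in the main fit and 91 with mouse as a block. Without young mouse 1, 2 or 3 the calls were 19 of 13867, 0 of 13783 and 73 of 13614 genes.

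Counting without a test, all 3 young mice were above all 3 of their 0 h libraries in 18 of 18 combinations of cell type and time for Ccl3, 18 of 18 for Ccl4 and 12 of 18 for Ccl5. The number was 9 of 18 for Ccl9, 6 of 18 for Ccl2 and 0 for Ccl6 and Ccl7. Among all genes tested, 2.68% to 7.53% were placed in this way at a given time. All 3 were below 0 h in 0 of 18 combinations for every member, while 4.0% to 24.9% of all genes were. At 8 h the median fitted log2 change over the 7 members was 4.32 in LT, 3.34 in ST and 5.05 in MPP, against -0.37, -0.26 and -0.21 over all genes. With members at 0 counts set to their bound, the MPP median was 2.94 and the other two were the same.

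**Figure D2:**
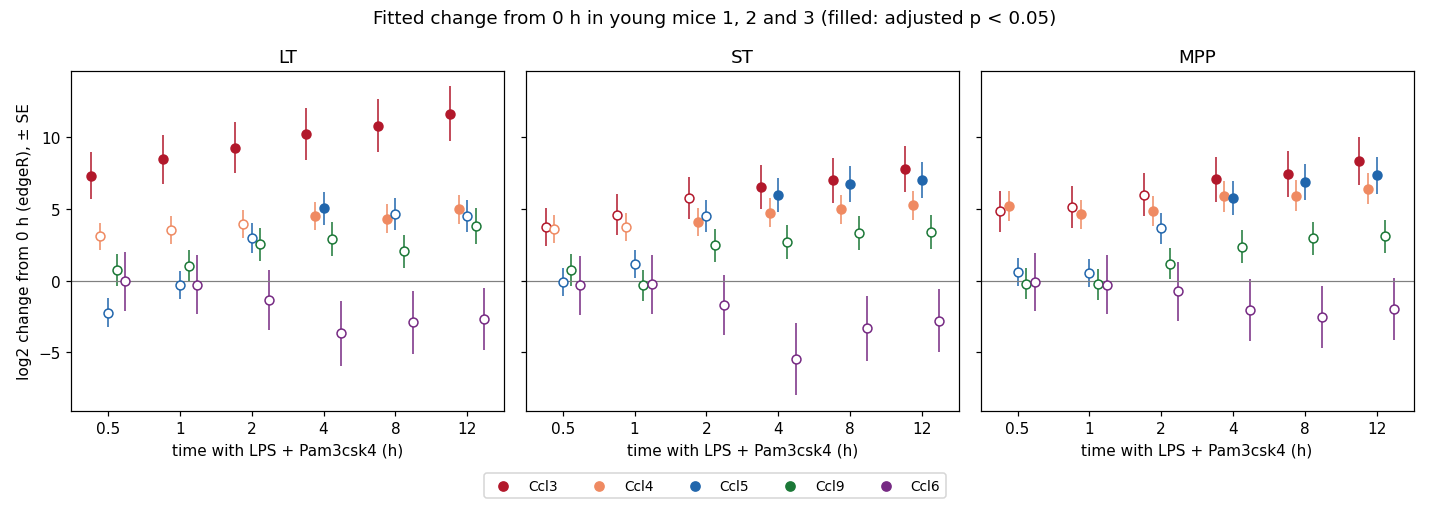
Fitted log2 change from 0 h (edgeR, bars ± SE) of 5 members in young mice 1, 2 and 3, against time with LPS and Pam3csk4 in LT, ST and MPP. Filled points passed at an adjusted p under 0.05: Ccl3 at all 6 times in LT, Ccl4 at all 6 times in MPP, and no point of Ccl6 or Ccl9.

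Ccl9 (MIP-1 gamma), a Ccr1 ligand made by myeloid cells and known for recruiting osteoclast precursors, stood higher with ligand from 2 or 4 h. In MPP at 8 h it had 246, 935 and 521 CPM in young mice 1, 2 and 3, against 100, 91.1 and 51.0 CPM at 0 h. The groups did not overlap, and the log2 change of 2.94 ± 1.18 had an edgeR adjusted p of 0.97 (unadjusted p = 0.016). In ST at 12 h it had 229.9, 556 and 499.6 CPM, against 84.8, 30.7 and 12.7 CPM at 0 h (3.39 ± 1.20, edgeR adjusted p = 0.23). In LT young mouse 2 had 3.62 CPM at 8 h, below its 27.5 CPM at 0 h, and 645 CPM at 12 h.

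The 250 bases before the transcription start were read for the members that the promoter table holds, Ccl9, Ccl6 and Ccl3, to show the member that stood lower with time beside members that rose or stood higher. They come from RefSeq on GRCm38.p6, a different build from the mm9 of the counts, and lie on the minus strand of chromosome 11 at chr11:83578637-83578886, chr11:83593088-83593337 and chr11:83649379-83649628. Each is written 5′ to 3′, ending at the base before the start, with motif matches in capitals.
Ccl9: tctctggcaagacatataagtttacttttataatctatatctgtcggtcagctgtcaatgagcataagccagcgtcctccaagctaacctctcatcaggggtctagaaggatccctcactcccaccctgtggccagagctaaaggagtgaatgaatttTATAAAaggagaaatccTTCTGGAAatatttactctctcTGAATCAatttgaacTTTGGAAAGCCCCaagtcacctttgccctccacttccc
Ccl6: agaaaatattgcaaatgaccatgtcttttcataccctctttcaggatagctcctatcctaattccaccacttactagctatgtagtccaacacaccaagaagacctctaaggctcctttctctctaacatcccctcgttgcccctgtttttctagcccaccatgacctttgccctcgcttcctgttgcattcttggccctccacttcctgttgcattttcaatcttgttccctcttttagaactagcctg
Ccl3: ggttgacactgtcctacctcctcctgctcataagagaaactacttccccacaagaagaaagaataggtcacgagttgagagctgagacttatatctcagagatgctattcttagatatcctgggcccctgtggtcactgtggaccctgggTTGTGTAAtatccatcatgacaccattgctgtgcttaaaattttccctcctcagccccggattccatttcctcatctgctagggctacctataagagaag

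Both strands were searched for the kappa-B motif of NF-kB, for AP-1 (TGANTCA) and for C/EBP (TTNNGNAA), and the gene's own strand for TATAAA. Counting back from the start, the Ccl9 window holds TATAAA at -92 to -87, C/EBP at -75 to -68 and -38 to -31, AP-1 at -53 to -47 and kappa-B, on the opposite strand, at -35 to -26, overlapping the second C/EBP match. The Ccl3 window holds C/EBP at -100 to -93 and no other of these motifs, and the Ccl6 window holds none of them. Of 32841 promoter windows of this length in the same table, 7.25% hold kappa-B, 6.75% AP-1, 36.9% C/EBP and 7.59% TATAAA. A match is a match of letters only, and its absence says only that those letters are not in the window.

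Ccl6, a chemokine of neutrophils and macrophages, had the highest mean level per length at 0 h in LT, at 171 ± 163 CPM per kb, followed by Ccl5 at 58.6 ± 53.4 (SD, n = 3 young mice 1, 2 and 3). The SDs of the pair overlap. At 0 h in LT Ccl6 had 227 and 308 CPM in old mice 2 and 4, and 469, 271, 0 and 629 CPM in young mice 1, 2, 3 and 4. With ligand it had 469, 448, 318, 187, 32.3, 37.9 and 22.2 CPM at 0, 0.5, 1, 2, 4, 8 and 12 h in LT of young mouse 1. In young mouse 3 it stayed between 0 and 6.13 CPM in LT over the course, so the 3 young mice overlapped at every time. At 8 h Ccl6 averaged 31.7 ± 23.1 CPM in LT, against 246.5 ± 235 CPM at 0 h (SD, n = 3), a log2 change of -2.92 ± 2.21 with an edgeR adjusted p of 0.72. In ST the change was -3.35 ± 2.25 and in MPP -2.53 ± 2.18, with edgeR adjusted p of 0.81 and 1.0.

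At 0 h Ccl6 was lowest in young mouse 3, the mouse with the fewest granule transcripts. Young mouse 3 had 0 CPM of Ccl6 in LT, 0 in ST and 7.47 in MPP, beside neutrophil granule sums of 239.7, 158 and 98.8 CPM. Young mouse 1 had 469, 473 and 359 CPM of Ccl6 beside sums of 54030, 54990 and 43970 CPM. Young mouse 4, with the highest sums (62290, 60920 and 64450 CPM), had 629, 470 and 510 CPM of Ccl6. The other mice did not follow one order. Young mouse 2 had 271, 248 and 144 CPM of Ccl6 beside sums of 31250, 34760 and 20660 CPM. Old mouse 4 had lower sums in LT, ST and MPP (18330, 18230 and 16760 CPM), yet more Ccl6 than young mouse 2 in LT and MPP (308 and 295 CPM) and less in ST (231 CPM). Old mouse 2 had 227, 222 and 140 CPM of Ccl6 beside sums of 19050, 22030 and 16820 CPM. Ccl9 was also lowest in young mouse 3 (0, 12.7 and 51.0 CPM in LT, ST and MPP), and so was Ccl5 (0.820, 2.19 and 4.73 CPM). Its Ccl3 in ST and MPP (9.75 and 12.9 CPM) instead lay within or above the range of the other mice. The part of granulocyte RNA in these levels was not tested. A gene on the opposite strand, E230016K23Rik, overlaps Ccl6 in GENCODE M21 and had a median of 0.23 CPM over the 108 libraries (highest 31.8). As no source used here gives the strand setting, reads of the pair cannot be told apart.

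**Figure D3:**
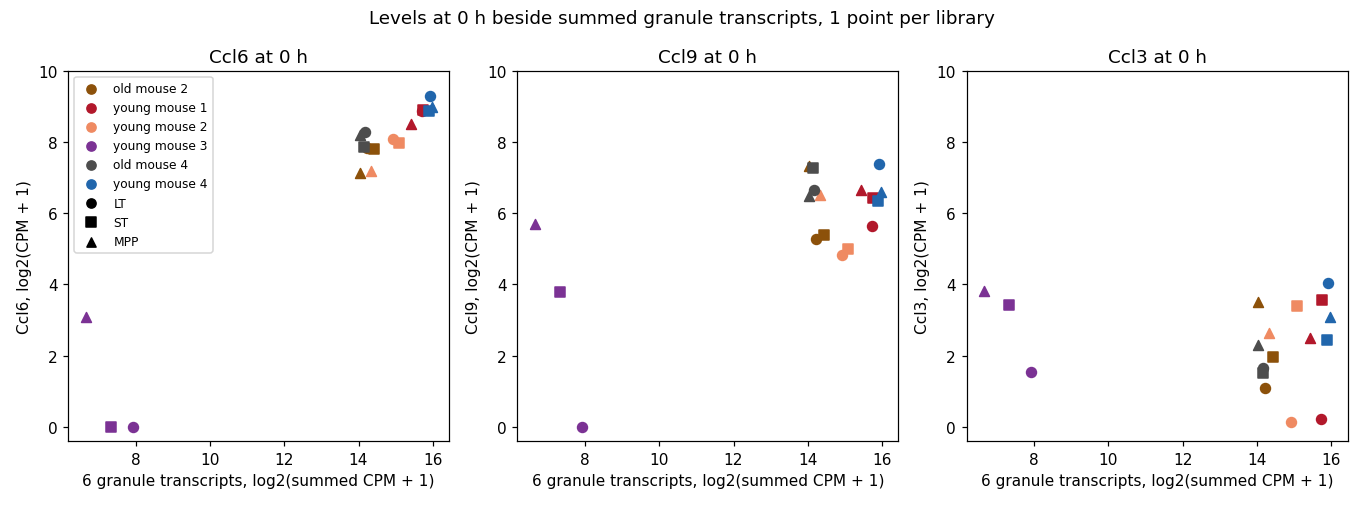
Level of Ccl6, Ccl9 and Ccl3 at 0 h as log2(CPM + 1) against the summed level of 6 neutrophil granule transcripts as log2(CPM + 1), with 1 point per library, coloured by mouse and shaped by cell type. The 3 libraries of young mouse 3 sit at the left, with Ccl6 at 0, 0 and 7.47 CPM and Ccl3 between 1.91 and 12.9 CPM.

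Ccl2 (MCP-1), the main monocyte attractant acting on Ccr2, was at 0 counts at 0 h in LT and ST of young mice 1, 2 and 3. At 0.5 h it had 44.0, 39.5 and 0 CPM in LT of these mice, and at 1 h 12.3, 29.4 and 0.232 CPM. In ST it had 21.4, 33.1 and 2.36 CPM at 0.5 h. In LT young mouse 3 was still at 0 at 0.5 h, and in ST all 3 mice were above their 0 h libraries. Taking 3 counts over the group as the limit at 0 h, the mean at 0.5 h was at least 200.0-fold higher in LT and at least 146-fold higher in ST. Neither passed, both with an edgeR adjusted p of 1.0 (unadjusted p = 0.0072 and 0.0084). At 4 h Ccl2 was at 0 in every stimulated library except those of young mouse 2 in LT (16.7 CPM) and ST (17.6 CPM). Ccl2 was also detected without ligand. In ST at 2 h it had 6.80 to 10.6 CPM without ligand, against 0 at 0 h, and 0 to 5.04 CPM with ligand. In MPP at 8 h it had 2.12 to 13.3 CPM without and 0 to 3.21 CPM with ligand. In LT at 2 h it had 0 to 3.03 CPM without and 0 to 6.16 CPM with ligand. Ccl7 (MCP-3), another Ccr2 ligand, had counts in 13 of the 108 libraries and at most 12.6 CPM, in ST of old mouse 2 at 1 h, and no test of it passed.

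**Figure D4:**
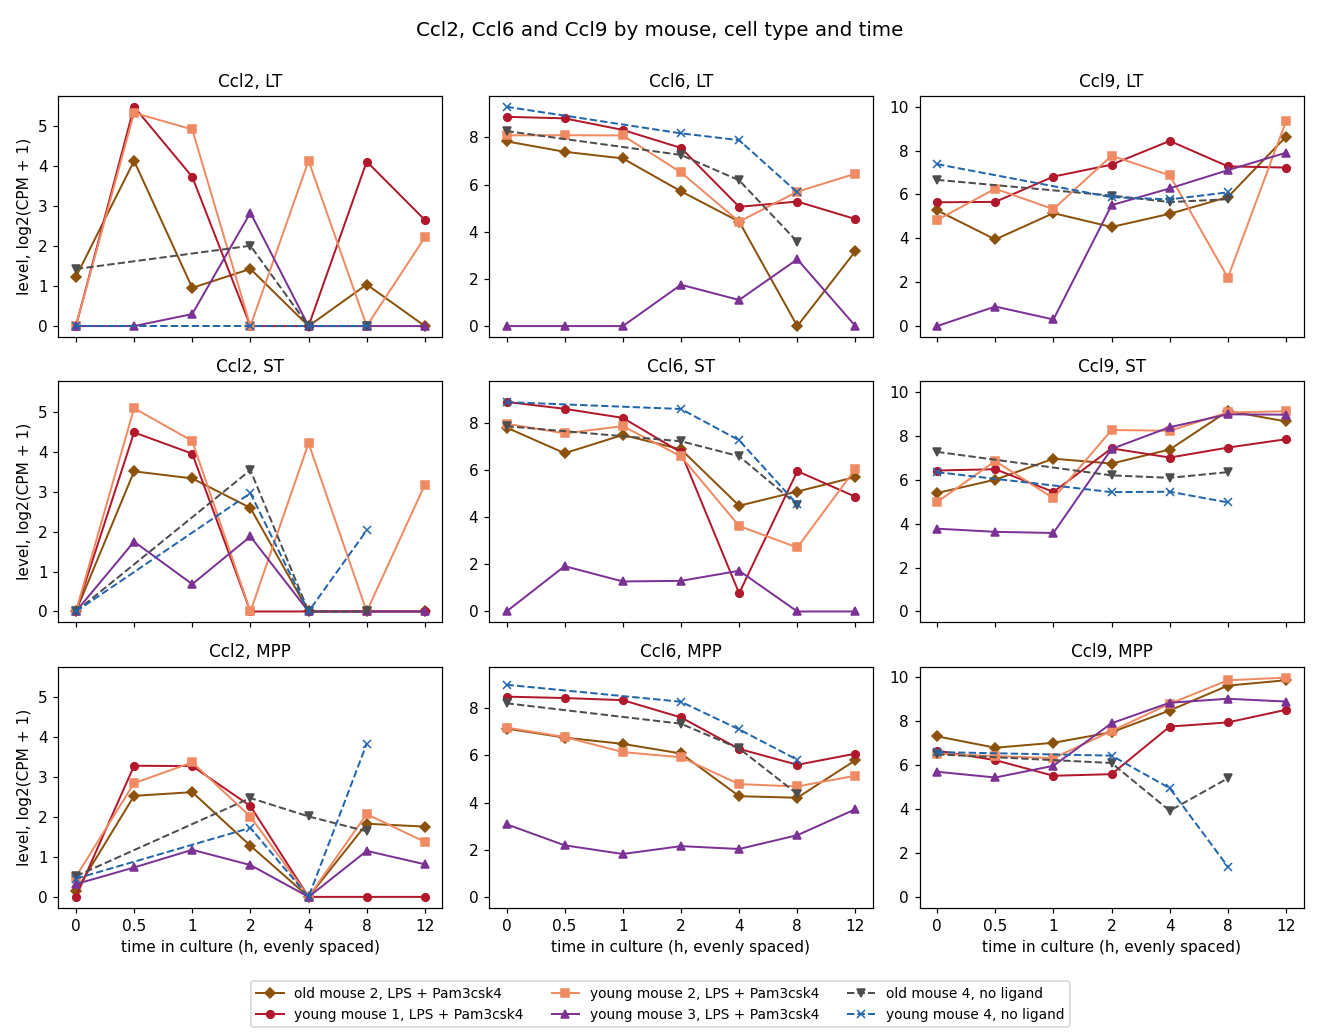
Level of Ccl2, Ccl6 and Ccl9 as log2(CPM + 1) against time in culture in LT, ST and MPP, with 1 line per mouse (solid with LPS and Pam3csk4, dashed without ligand; times evenly spaced). With ligand Ccl2 peaks at 0.5 to 1 h except in LT and ST of young mouse 3. Ccl6 lies lower at 8 h than at 0 h, with and without ligand, except in LT and ST of young mouse 3. Ccl9 lies above 0 h at 8 h with ligand in ST and MPP.

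In old mouse 2, the only old mouse given ligand, Ccl3 in LT and Ccl5 in MPP stood above 0 h late in the course as well. Its Ccl3 in LT was 1.12, 34.5, 72.5, 155, 202, 257 and 273 CPM at 0, 0.5, 1, 2, 4, 8 and 12 h, between young mouse 3 and the other young mice from 0.5 h on. Its Ccl5 in MPP was 16.6, 18.1, 29.4, 381, 873, 2002 and 3088 CPM, at 12 h the highest of the 4 stimulated mice. In LT its Ccl5 was 122, 195 and 110 CPM at 2, 4 and 8 h, each the lowest of the 4. Its Ccl9 in MPP was 791 CPM at 8 h, against 158 CPM at 0 h. With 1 old mouse these values have no test against young mice.

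Among the members, Ccl3 and Ccl4 varied most alike. Over the 63 libraries of young mice 1, 2 and 3, which share mice and time points, Pearson's r of log2(CPM + 1) was 0.943 between them, the highest of 8842 genes compared for either. For Ccl3 the next genes were Irg1 (0.884) and Saa3 (0.864), and for Ccl4 they were Irg1 (0.845) and Tnf (0.829). Ccl5 was most like Nadk (0.903), Fyb (0.897) and Bcl2a1d (0.89). Ccl6 was most like Retnlg (0.879), Ifitm6 (0.866) and Cd79a (0.863), Ccl9 like Milr1 (0.818), Ncf1 (0.807) and AA467197 (0.771), and Ccl2 like Junb (0.608). For Ccl7 no gene exceeded 0.33. These coefficients are descriptions with no test.

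The next question was whether the response differed between LT, ST and MPP. Of 126 tests of a difference in response, edgeR called 0, where 0% of all genes passed at each time except LT against ST at 12 h (0.00731%). An unadjusted p under 0.05 was reached by 7 of the 126, and by 0.863% to 6.72% of all genes in the single comparisons. Ccl3 gave 3 of the 7, with a log2 change from 0 h that was larger in LT than in ST by 3.86 ± 1.86 at 1 h, 3.80 ± 1.86 at 8 h and 3.87 ± 1.86 at 12 h (edgeR adjusted p = 1.0, 1.0 and 0.73). Without young mouse 3 this difference was 6.08 at 8 h with an edgeR adjusted p of 7.2e-07, and 6 tests passed for LT against ST and 6 for LT against MPP. At 8 h that fit called 1 of 13614 genes higher and 41 lower for LT against ST, and 1 and 35 for LT against MPP. Ccl3 in LT was at 0.163 and 0.0850 CPM (1 count each) at 0 h in young mice 1 and 2 and at 10.7 and 9.43 CPM in ST. At 12 h it was at 2596 and 3103 CPM in LT and 2675 and 3019 CPM in ST. DESeq2 called 6 differences of LT against MPP, 1 of LT against ST and 5 of ST against MPP. At 8 h DESeq2 called 71 of 13629 genes higher and 261 lower for LT against MPP, and 164 and 244 for LT against ST. At 0.5 h it called 57 and 68 for LT against MPP, and 74 and 77 for LT against ST. At 12 h these were 92 and 182, and 567 and 182. The share of all genes for ST against MPP is not given here, so its 5 calls are not read as particular to the members.

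Between 2 and 8 h with ligand no member passed. Ccl5 in MPP came nearest, at 921, 2256 and 1058 CPM at 8 h, against 79.1, 164 and 170 CPM at 2 h (log2 change 3.28 ± 1.06, edgeR adjusted p = 1.0, unadjusted p = 0.0032). Of 7 members 0 had an unadjusted p under 0.05 in LT, 1 in ST and 1 in MPP, where 9.67%, 6.21% and 2.47% of all genes did. DESeq2 called 0, 1 and 0, the call in ST being Ccl2, lower at 8 h. Over the 3 mice it had 11 counts there at 2 h and 0 at 8 h. In LT DESeq2 called 266 of 13099 genes higher and 480 lower. Among all genes edgeR called 0.0146%, 0.0146% and 0.00731% higher at 8 h.

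A further comparison asked which of these changes depended on the ligands. The change since 0 h was compared between old mouse 2 with young mice 1, 2 and 3, given ligand, and old mouse 4 with young mouse 4, left without. Ccl5 in MPP at 8 h was the only member that passed. It had 2002 CPM in old mouse 2 and 921, 2256 and 1058 CPM in young mice 1, 2 and 3 with ligand, and 45.1 CPM in old mouse 4 and 24.4 CPM in young mouse 4 without. At 0 h these mice had 16.6, 18.1, 15.7 and 4.73 CPM in the first set and 31.6 and 46.3 CPM in the second. Every mouse with ligand lay far above both mice without it at 8 h. The log2 change from 0 h was larger with ligand by 6.91 ± 1.33 (edgeR adjusted p = 0.015), where 0.0625% of 14401 genes were called higher. With mouse as a block the adjusted p was 0.00023. The call was lost without young mouse 2 (adjusted p = 0.12), without old mouse 4 (0.25) and without young mouse 4 (1.0), with differences of 6.73, 7.71 and 6.15.

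In ST at 8 h Ccl5 had 3092 CPM in old mouse 2 and 931, 3524 and 857 CPM in young mice 1, 2 and 3 with ligand, and 67.0 and 26.6 CPM in old mouse 4 and young mouse 4 without. The difference of 5.15 ± 1.27 had an edgeR adjusted p of 0.1, and 0.0072 with mouse as a block. In LT at 8 h the courses had 110, 1044, 929 and 279 CPM with ligand and 40.9 and 52.3 CPM without (4.22 ± 1.24, edgeR adjusted p = 0.44). Without ligand Ccl5 stayed between 14.6 and 85.2 CPM in all 18 libraries of 2, 4 and 8 h, LT, ST and MPP together. Its change from 0 h to 8 h there was 0.08 ± 0.96 in MPP, a value that changed sign in other fits.

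Ccl3 and Ccl4 also stood higher in culture without ligand. Ccl3 in MPP had 3.90, 90.1, 148 and 165 CPM in old mouse 4 and 7.46, 76.4, 188 and 222 CPM in young mouse 4 at 0, 2, 4 and 8 h. The change at 8 h was 5.31 ± 1.46 (edgeR adjusted p = 0.13, and 0.017 with mouse as a block). Ccl4 in MPP had 52.0 and 141 CPM at 8 h in old mouse 4 and young mouse 4, against 2.60 and 0.373 CPM at 0 h. This change of 6.32 ± 1.39 passed (edgeR adjusted p = 0.021), the only member to do so, where 0.167% of 14401 genes were called higher at 8 h in MPP and 0.125% in each of LT and ST. At 2 and 4 h no member passed, where 0.0139% and 0.0903% of all genes were called higher in LT, 0.0208% and 0.125% in ST, and 0.0417% and 0.0972% in MPP. At 2, 4 and 8 h the members with an unadjusted p under 0.05 numbered 0, 2 and 2 of 7 in LT and 2 of 7 at each time in ST and MPP. Among all genes these shares were 2.59%, 3.77% and 7.64% in LT, 2.86%, 5.18% and 7.42% in ST, and 1.69%, 4.05% and 6.42% in MPP. Over these times DESeq2 called 4, 7 and 5 tests in LT, ST and MPP, all higher except 2 in LT. There DESeq2 called Ccl2 lower at 4 and 8 h (adjusted p = 0.029 and 0.018), with 4 counts over both mice at 0 h and 0 at 4 and 8 h. With mouse as a block 2, 5 and 5 member-by-time tests passed in LT, ST and MPP. Among all genes in LT at 4 h, DESeq2 called 125 of 13492 higher and mouse as a block 59 of 14401. The call of Ccl4 was lost without young mouse 2 (adjusted p = 0.078), old mouse 2 (0.066), old mouse 4 (0.22) or young mouse 4 (1.0), with changes of 6.30, 6.24, 8.66 and 4.61.

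Set against each other, the courses of Ccl3 and Ccl4 had wide intervals. In MPP at 8 h Ccl3 had 1248 CPM in old mouse 2 and 1061, 1731 and 737 CPM in young mice 1, 2 and 3 with ligand, and 165 and 222 CPM in old mouse 4 and young mouse 4 without. The difference in change was 2.05 ± 1.53 (edgeR adjusted p = 1.0). Ccl4 had 863, 482, 947 and 394 CPM with ligand in the same order and 52.0 and 141 CPM without. All libraries with ligand lay above both without it, yet the difference in change was -0.17 ± 1.25 (edgeR adjusted p = 1.0), and its sign changed when young mouse 3 (0.23) or young mouse 4 (1.52) was left out. At 0 h Ccl4 was at 9.73, 10.2, 7.94 and 15.2 CPM in the first set of mice and at 2.60 and 0.373 CPM in the second. In LT at 8 h Ccl3 had 257 CPM in old mouse 2 and 1885, 1471 and 23.9 CPM in young mice 1, 2 and 3 with ligand, and 174.5 and 183 CPM in old mouse 4 and young mouse 4 without. Young mouse 3 thus lay below both mice without ligand. At 0 h these mice had 1.12, 0.163, 0.0850 and 1.91 CPM in the first set and 2.12 and 15.3 CPM in the second. The difference in change was 5.86 ± 1.69 (edgeR adjusted p = 0.42), and it passed without young mouse 3, the mouse with the lowest level (edgeR adjusted p = 0.0084).

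Without ligand the mean levels of Ccl9 and Ccl6 were both lower at 8 h than at 0 h in LT, ST and MPP. With ligand the mean of Ccl9 was higher at 8 h, while that of Ccl6 was again lower. In MPP Ccl9 had 41.4 CPM in old mouse 4 and 1.59 CPM in young mouse 4 at 8 h, against 89.2 and 95.9 CPM at 0 h, while the 4 mice with ligand had 246 to 935 CPM at 8 h. The difference in change was 4.66 ± 1.43 in MPP and 4.41 ± 1.42 in ST (edgeR adjusted p = 0.51 and 0.47; DESeq2 adjusted p = 0.02 and 0.031). Ccl6 in LT had 11.0 and 49.9 CPM at 8 h in old mouse 4 and young mouse 4, against 308 and 629 CPM at 0 h, a change of -3.77 ± 2.03 (edgeR adjusted p = 0.67). Its difference between the courses was 0.54 ± 2.24 in LT, 0.68 ± 2.24 in ST and 0.64 ± 2.23 in MPP, none of which passed. At 8 h the members with an unadjusted p under 0.05 for the difference between courses numbered 3 of 7 for LT, with 2 each for ST and MPP, beside 5.07%, 6.1% and 3.98% of all genes. By the adjusted p edgeR called 0 of 7 in LT and ST, where 0.0347% and 0.0833% of all genes were called higher. At 2 and 4 h edgeR called no member, with unadjusted p under 0.05 for 1 to 3 of 7 and for 1.09% to 4.08% of all genes. By the adjusted p 0% and 0% of all genes were called higher in LT, 0.0139% and 0.00694% in ST, and 0.00694% and 0.0278% in MPP. Over 2, 4 and 8 h DESeq2 called 6, 3 and 4 tests in LT, ST and MPP, of which 1 in MPP was negative, Ccl2 at 4 h. Over the 4 mice with ligand Ccl2 in MPP had 4 counts at 0 h and 0 at 4 h. In LT at 8 h DESeq2 called 220 of 14042 genes higher and 107 lower.

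**Figure D5:**
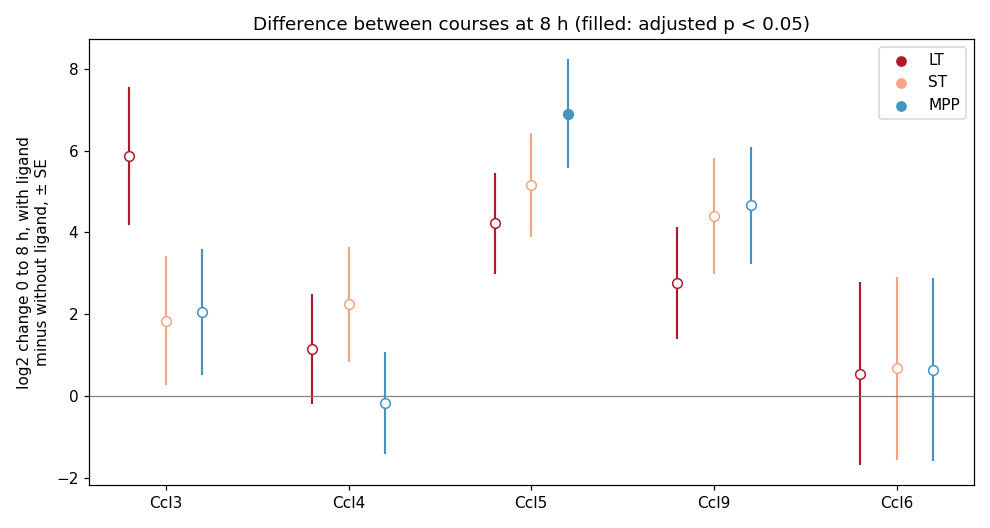
Log2 change from 0 to 8 h with LPS and Pam3csk4 (old mouse 2 and young mice 1, 2 and 3) minus that without ligand (old mouse 4 and young mouse 4), from edgeR with bars of ± SE, for 5 members in LT, ST and MPP. The filled point, Ccl5 in MPP at 6.91, passed at an adjusted p under 0.05, and the points of Ccl6 lie near 0.

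At 0 h no member passed a test between cell types or between ages. Of the 7, Ccl2 and Ccl7 did not pass the filter on low counts, and 0 of the other 5 passed between LT, ST and MPP in the young mice or between old and young mice, by edgeR and by DESeq2. By edgeR none had an unadjusted p under 0.05, a level that 0.431% to 4.24% of all genes reached. Of all genes edgeR called 0%. DESeq2 called 6 of 11521 genes higher and 21 lower for LT against MPP, and 9 and 21 for LT against ST. For old against young LT it called 7 of 12780 higher and 14 lower. Ccl4 in LT showed the largest fitted gap between ages, with 5.83 and 0.847 CPM in old mice 2 and 4 and 25.7, 11.3, 9.57 and 14.7 CPM in young mice 1, 2, 3 and 4. The groups did not overlap, and the log2 difference, old minus young, was -2.21 ± 1.58 (edgeR adjusted p = 1.0). Ccl5 in ST had 58.9 and 25.6 CPM in the old mice and 25.7, 23.9, 2.19 and 19.4 CPM in the young mice (1.18 ± 1.10, edgeR adjusted p = 1.0). With 2 old mice these intervals are wide, and a p that misses the threshold does not show that ages act alike.

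Among the rest of the family and its receptors, 1 gene passed. Of the 17 other CC chemokines in the table, 7 were tested in the time course and 1 passed at any time, Ccl22, a Ccr4 ligand of dendritic cells and macrophages. It was at 0 counts at 0 h in young mice 1, 2 and 3 and averaged 105 ± 158 CPM in LT, 205 ± 307 CPM in ST and 449 ± 333 CPM in MPP at 12 h (SD, n = 3), with edgeR adjusted p of 0.085, 0.034 and 0.024. Of the 15 CC receptors in the table, 12 were tested and 0 passed in either direction. Ccr1, the shared receptor of Ccl3, Ccl5, Ccl6 and Ccl9, averaged 24.4 ± 37.6 CPM in MPP at 8 h, against 43.1 ± 47.9 CPM at 0 h. Ccr2 averaged 9.43 ± 15.1 CPM, against 85.4 ± 79.4 CPM at 0 h, with spreads as large as most of these levels.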

How the data were processed

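The samples are LT, ST and MPP from 2 old and 4 young mice. Expected counts for 23366 gene symbols were deposited by the authors, made with RSEM (version not stated) on build mm9, per the submitters' processing notes. Aligner, annotation and strand setting are not given in the sources used here. Of the values, 89.5% are whole. Groups come from the labels. All 0 h libraries were read as 1 baseline, although some carry the ligand label. Of 127 libraries, 6 of old mouse 2 LT with 7 to 41 counts were dropped (minimum 1000). The other 121 were summed over technical repeats and rounded to 108 libraries of 0.991 to 11.8 in units of 1000000 counts, 12 of them from several repeats. CPM is counts per 1000000 counts of a library. Reads carry no molecular identifiers, so the floor of 3 counts covers counting error only.

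The tests ran in edgeR 4.0.16 under R 4.3.3 (TMM, filterByExpr, quasi-likelihood F tests, two-sided, Benjamini-Hochberg within each comparison at 0.05) in fits of 63 libraries (young time course, 13678 genes), 72 (with against without ligand, 14401 genes), 12 (cell types at 0 h, 11568 genes) and 18 (ages at 0 h, 12983 genes). SEs are the size of the log2 change over the square root of F. The steps were tested on simulated data. Levels per length use GENCODE M21 transcripts. Plots were made in matplotlib 3.10.9 under Python 3.11.15.

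A mouse number was read as 1 animal in all its samples. Residuals correlated at a mean r of 0.192, 0.0684 and 0.408 within young mice 1, 2 and 3 and at -0.127, -0.0518 and -0.208 with other mice. Mouse as a block was an alternative, as were DESeq2 1.42.0, its size factors, no filter on low counts, the first technical repeat, a minimum of 8000 detected genes, leaving out each mouse and a fit of 1 cell type alone. All 7 members are named, with the other CC chemokines that passed, the receptors Ccr1 and Ccr2, and the 3 genes of at least 10 CPM most like each member. One receptor of the naming rule is not reported here. The members and lists were chosen with earlier results of these data known.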

Additional observations from a re-analysis of the deposited data

Results flagged for a closer look

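In 7 of 70 groups of 4 mice 1 library lay far from the others. The usual rate of about 1 in 20 does not apply where the other libraries of a group are at 0 counts. That was so for Ccl2 at 4 h and for Ccl7, so no excess over this rate is read here. Ccl2 was at 16.7 CPM in LT of young mouse 2 at 4 h, at 17.6 CPM in ST of the same mouse at 4 h and at 16.4 CPM in LT of young mouse 1 at 8 h, each the highest of the 4 stimulated mice. Ccl7 was at 9.36 CPM in ST of young mouse 2 at 4 h and at 2.47 CPM in MPP of young mouse 2 at 8 h, again the highest stimulated values. Ccl3 at 0 h in LT was highest in young mouse 4, at 15.3 CPM among the 4 young mice. Ccl9 in ST at 8 h was lowest in young mouse 1, at 176 CPM among the 4 stimulated mice.

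The change of Ccl5 in MPP between 0 and 8 h differed between the courses, being larger with LPS and Pam3csk4 than without by 6.91 on the log2 scale (edgeR adjusted p = 0.015, higher in 4 of 4 mice with ligand than in both mice without).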

How the results depend on the processing

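Calls against 0 h changed with the mice in the fit, as did the calls over all genes. Leaving out 1 mouse at a time gave 0 to 15 of 42 member tests in LT (main 10), 0 to 16 in ST (10) and 0 to 15 in MPP (12). DESeq2 called 23 in LT, 22 in ST and 17 in MPP (1 of these lower), a minimum of 8000 detected genes gave 5 in LT, and a fit of 1 cell type alone gave 0 in LT and 19 in MPP. The replicate block gave 15, 14 and 14. At 8 h in LT DESeq2 called 251 of 13363 genes higher and the replicate block 91 of 13678, where the main fit called 32. For any change over time, leaving out 1 mouse gave 1 to 3 members in LT, 0 to 4 in ST and 0 to 3 in MPP, DESeq2 gave 4 in ST, the replicate block 4 in ST and LT alone 0. Between 8 and 2 h the counts were 0 to 1 in LT without 1 mouse, 1 (lower) in ST by DESeq2 and 1 in MPP alone. For differences in response, leaving out 1 mouse gave 0 to 6 for LT against MPP and for LT against ST, and DESeq2 gave 6, 1 and 5.

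With against without ligand, leaving out 1 mouse gave 0 to 2 calls in LT, 0 to 1 in ST and 0 to 1 in MPP. DESeq2 gave 6, 3 and 4 there, and MPP alone gave 3. No filter gave 1 in ST and 2 in MPP, the replicate block 1 and 2, and the 8000-gene minimum 1 in ST. Without ligand against 0 h, leaving out 1 mouse gave 0 to 2 in LT, 0 to 3 in ST and 0 to 5 in MPP. DESeq2 gave 4, 7 and 5 and the replicate block 2, 5 and 5. No filter gave 3 in ST and 5 in MPP, the 8000-gene minimum 1 and 3, and MPP alone 6. The calls over all genes moved with the setting as well. For LT at 8 h with against without ligand, the main fit called 5 of 14401 genes higher. DESeq2 called 220 of 14042 there and the replicate block 14 of 14401. For LT without ligand at 4 h these were 13 of 14401, 125 of 13492 and 59 of 14401. The causes were not tested. Counts at 0 h and between ages were 0 under every alternative run, and no block could be fitted for age, since each mouse has 1 age.

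Of 970 values of single genes under alternatives, 960 kept their direction. Reversed, for the difference between courses at 8 h, was Ccl4 in LT (-0.95 with the 8000-gene minimum, -2.79 to 3.28 without 1 mouse, negative without young mouse 4), in ST (-4.13 to 2.90 without 1 mouse, negative without young mouse 4) and in MPP (-2.52 to 1.52 without 1 mouse, positive without young mouse 3, 0.23, or 4, 1.52). Ccl6 reversed in LT (-2.28 with the 8000-gene minimum, -0.11 to 1.32 without 1 mouse, negative without young mouse 2) and in ST (-0.26 with the 8000-gene minimum). Ccl5 in MPP without ligand at 8 h was -0.032 with the replicate block and -0.73 to 0.81 without 1 mouse, negative without old mouse 4. Size factors in place of TMM shifted the median of all genes by 0.04 to 0.27 on the log2 scale. Depth limits Ccl2 and Ccl7, whose libraries are often at 0, and the 0 h level of Ccl3 in LT.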
